A study of Mus musculus with 10 samples.

Results

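Nucleosomal DNA is wound around a core of histones H2A, H2B, H3 and H4, and a linker histone, H1, binds where the DNA enters and leaves that core. Most somatic H1 genes and most core histone genes are replication-dependent: they lie in clusters, have short genes without introns and are expressed in S phase, when new chromatin is made. H3f3b is different, since it is one of the genes of the replacement variant H3.3, has introns and is expressed throughout the cell cycle. The data here concern HEB occupancy at H1f2, H1f3, H1f4 and H1f5, 4 linker histone genes of the large histone cluster on mouse chromosome 13, and at H3f3b on chromosome 11. These 5 genes, of 21887 protein-coding genes on assembled chromosomes, were chosen by their HEB summits, which scored high and lay beside the gene. Their summits, scores and ranks therefore chose them and are described here without a test.

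HEB, the product of Tcf12, is an E-protein, a class of transcription factor that binds E-boxes (the sequence CANNTG) as a dimer, and ID4 is a related protein that lacks the DNA-contacting region and can pair with E-proteins. HEB was immunoprecipitated from Comma-Dβ cells (Comma-Dbeta in the labels), a mouse mammary epithelial line, at passage 28. Cells had been transfected with 20 nM of siRNA and were collected after 48 h. The siRNA was the siGENOME Mouse Id4 SMARTpool (siID4, 3 libraries) or the ON-TARGETplus Non-targeting Control Pool (siNT, 3 libraries). The 4 input libraries, listed with neither siRNA nor antibody, served both groups. Each siRNA has 1 deposited list of summits, the single bases where peaks are highest, with 560 summits for siNT and 1489 for siID4. The lists hold no value per library, so no value below carries a replicate error, and the read depth behind each summit is unknown. They hold no expression either, so neither the cell type's markers nor the loss of Id4 could be checked in them. The score of a summit is read as −log10 of a q value; it ran from 1.32 to 1988 in siNT with a median of 6.68 and from 1.31 to 2053 in siID4 with a median of 4.31. Scores depend on the depth of their own list, so ranks within a list (1 is the highest score) are given beside them, and no difference in score or rank between the lists is read as a change in occupancy.

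Each of the 5 genes had exactly 1 summit of each list within 5000 bp of its body, and in each gene both summits lay within 200 bp of each other. Over all protein-coding genes, 217 (0.991%) had an siNT summit within that distance, 549 (2.51%) had an siID4 summit, and 113 (0.516%) had a pair of summits within 200 bp of each other. Since the genes were picked for these summits, nothing is read from the contrast of 5 of 5 with these shares. The median rank of the 5 summits was 39 of 560 in siNT and 19 of 1489 in siID4. In siID4 all 5 scored above the upper quartile of the list, 7.72, and in siNT 4 scored above it, at 13.8, with H1f5 the exception.

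H1f2 encodes the linker histone H1.2, an H1 subtype found in most somatic cells, and its gene spans 23738807 to 23739531 of chromosome 13 (mm10) on the plus strand. The siNT summit lay at 23738728 with a score of 157 and rank 11, and the siID4 summit at 23738726 with a score of 178 and rank 9. They were 79 and 81 bp upstream of the transcription start, 2 bp apart, so both lists placed the summit at practically the same base of the promoter. Of the 11 siNT summits at or above this rank, 6 lay on unplaced scaffolds, 3 at the start of chromosome 9 and 2 at H3f3b and H1f2 themselves. Of the 9 such siID4 summits, 4 lay on scaffolds, 3 at the start of chromosome 9 and 2 at these same genes. With scaffolds left out, H1f2 ranked 5 in both lists.

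H1f3, the gene of linker histone H1.3, spans 23555032 to 23555807 of chromosome 13 on the plus strand. Its siNT summit, at 23554969, scored 33.5 and ranked 39, and its siID4 summit, at 23554923, scored 62.8 and ranked 28. The summits were 63 and 109 bp upstream of the start and 46 bp apart, with the siID4 summit the further upstream. H1f4, the gene of linker histone H1.4, spans 23621777 to 23622558 on the minus strand. Its siNT summit, at 23622846, scored 31.3 and ranked 41, and its siID4 summit, at 23622661, scored 84.8 and ranked 19. These lay 288 and 103 bp upstream of the start, 185 bp apart, and the siNT summit was the most distant from a start of all 10 summits. Of the 290 siID4 summits with an siNT summit within 200 bp, whose median offset was 13 bp (interquartile range 3 to 33.8), 287 had a smaller offset than H1f4. H1f4 therefore counted as shared at 200 bp but not at 100 bp.

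H1f5, the gene of linker histone H1.5, lies apart from the other 3, from 21779832 to 21780625 on the minus strand. Its siNT summit, at 21780754, scored 8.63 and ranked 231 of 560, close to the middle of the list. Its siID4 summit, at 21780776, scored 29.3 and ranked 68 of 1489. The summits were 129 and 151 bp upstream of the start and 22 bp apart. H1f5 was the lowest of the 5 genes in both lists, and the order of the others was H3f3b, H1f2, H1f3, H1f4 in siNT and H3f3b, H1f2, H1f4, H1f3 in siID4. The H1f3 and H1f4 scores in siNT, 33.5 and 31.3, were 2 ranks apart, and nothing in the lists says whether they differ beyond replicate error.

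**Figure D1:**
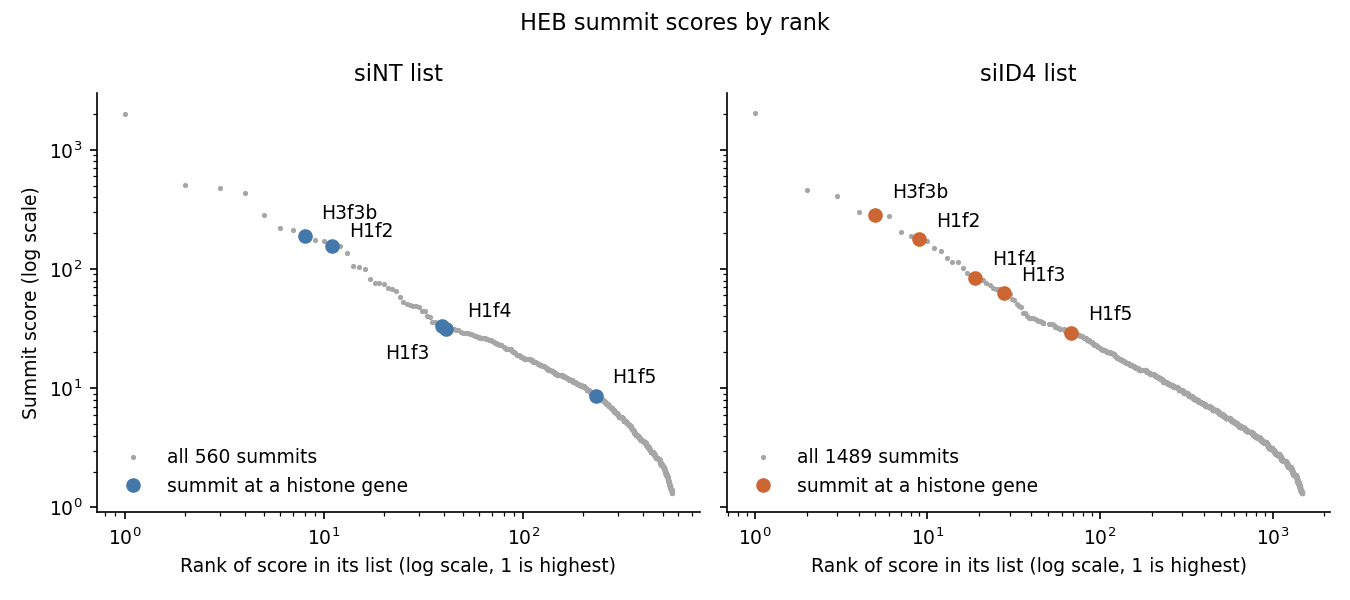
Score of every HEB summit (vertical axis, log scale) against its rank in its own list (horizontal axis, log scale), for the siNT list of 560 and the siID4 list of 1489 summits; coloured points are the summits at the 5 histone genes. H3f3b and H1f2 sit near the top of both lists, at ranks 8 and 11 in siNT and 5 and 9 in siID4. H1f5 stands at rank 231 of 560 in siNT and at rank 68 of 1489 in siID4.

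H3f3b spans 116021961 to 116026039 of chromosome 11 on the minus strand. The siNT summit lay at 116024705 with a score of 190 and rank 8, and the siID4 summit at 116024732 with a score of 286 and rank 5. They were 27 bp apart. Both fall inside the annotated gene body, but the RefSeq promoter table puts the transcription start of H3f3b at 116024504, and from that start the summits lay 201 and 228 bp upstream. Relative to this start they were promoter summits, as at the linker histone genes; the gene table gives only outer ends, so transcripts that begin further upstream were not examined. The siID4 score was 66.5 times the median of its list and the siNT score 28.4 times.

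H3f3b lies in the part of chromosome 11 beyond 110 Mb, where siID4 summits are crowded. That part held 57 siNT summits with a median score of 3.03 and 333 siID4 summits with a median of 3.52. The H3f3b summit scored highest there in both lists, and the next scored 26.2 (rank 64) in siNT and 22.8 (rank 95) in siID4. Within 50 kb of the H3f3b summit there was no other siNT summit and 1 other siID4 summit, which lay inside Unc13d, a gene of secretory granule exocytosis, with a score of 2.22 and rank 1232. Among the 2 nearest protein-coding genes on each side, Unk, an RNA-binding protein gene, begins 2577 bp from H3f3b, and its body was 3911 bp from the siNT and 3884 bp from the siID4 summit of H3f3b. Galk1, the galactokinase gene, was 11986 and 12013 bp from these summits, and Itgb4, the integrin β4 gene of hemidesmosomes, 16293 and 16320 bp. No nearer summit of either list lay at Unk, Galk1 or Itgb4.

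In the whole lists, all 5 genes had a lower rank number in siID4 than in siNT, although the siID4 list is the longer one. Of the 290 shared siID4 summits, 98 (33.8%) did so, and the median ratio of the siID4 rank to the siNT rank was 1.25. The 5 genes were chosen by these same scores and ranks, so nothing is read from this contrast. The genes most alike in rank, named below, also had a lower rank number in siID4, but they were picked by their ranks. The ratio was 0.294 for H1f5, and 1 shared summit had a smaller ratio. It was 0.463 for H1f4, with 12 shared summits below it, 0.625 for H3f3b with 33, 0.718 for H1f3 with 48 and 0.818 for H1f2 with 68. H1f5 and H1f4 thus had the lowest ratios of the 5 genes and H1f2 the highest. With scaffolds left out, H1f2 ranked 5 in both lists, and only the others had a lower rank number in siID4. These ratios come from 1 list per siRNA and have no replicate check, and both lists share their input libraries.

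**Figure D2:**
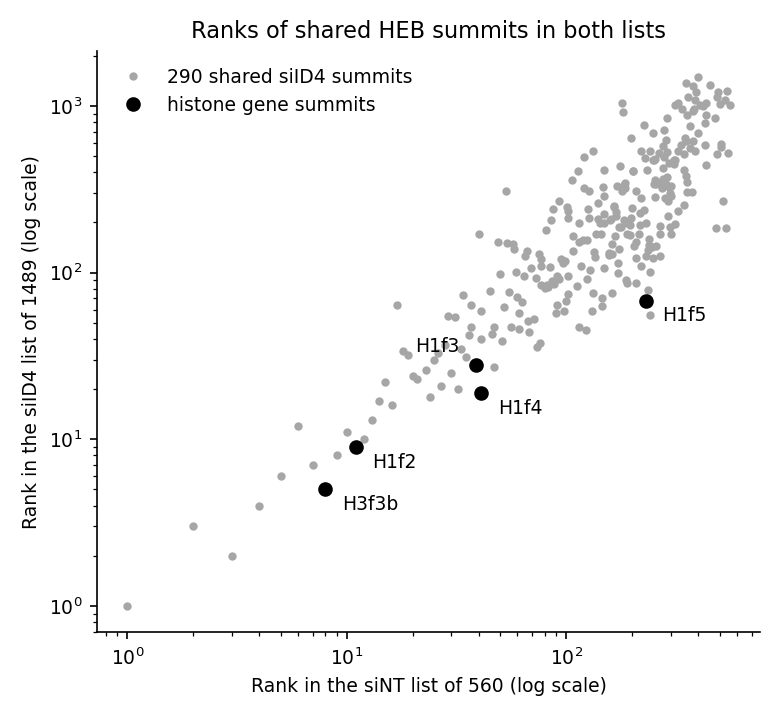
Rank in the siID4 list (vertical axis, log scale) against rank in the siNT list (horizontal axis, log scale) for the 290 siID4 summits with an siNT summit within 200 bp; black points are the 5 histone gene summits. In these whole lists all 5 have a lower rank number in siID4 than in siNT. Of the black points, H1f5 (231 and 68) lies furthest to the right.

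The promoters of the 4 linker histone genes are shown next because the summits fall within or beside them and because they share sequence. The choice of genes used no sequence, but all 4 are linker histone genes, so shared promoter sequence is not independent of that choice. The sequences are the 250 bases upstream of each transcription start from the RefSeq table of GRCm38.p6, the assembly behind mm10, written 5′ to 3′ on the strand of the gene. Capitals mark every CCAAT word, every H1 box, whose letters are AAACACA, every E-box and every match to the letters of the TATA box, TATAAA, on either strand.
H1f2, chr13:23738557-23738806, plus strand: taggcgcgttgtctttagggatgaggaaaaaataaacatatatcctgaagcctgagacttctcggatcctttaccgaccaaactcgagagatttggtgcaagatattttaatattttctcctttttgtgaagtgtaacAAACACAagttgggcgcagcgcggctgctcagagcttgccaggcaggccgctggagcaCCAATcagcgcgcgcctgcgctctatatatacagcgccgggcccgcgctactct
H1f3, chr13:23554782-23555031, plus strand: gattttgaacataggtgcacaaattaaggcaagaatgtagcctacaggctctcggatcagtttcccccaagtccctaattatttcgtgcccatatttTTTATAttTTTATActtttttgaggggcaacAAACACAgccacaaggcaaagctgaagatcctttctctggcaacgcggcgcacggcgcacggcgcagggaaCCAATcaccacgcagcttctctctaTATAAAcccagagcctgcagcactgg
H1f4, chr13:23622559-23622808, minus strand: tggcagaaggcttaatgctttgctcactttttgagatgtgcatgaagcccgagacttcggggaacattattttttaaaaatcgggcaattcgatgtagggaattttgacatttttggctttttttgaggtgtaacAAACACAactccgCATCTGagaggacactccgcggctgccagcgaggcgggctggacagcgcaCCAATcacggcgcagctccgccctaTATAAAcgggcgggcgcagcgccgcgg
H1f5, chr13:21780626-21780875, minus strand: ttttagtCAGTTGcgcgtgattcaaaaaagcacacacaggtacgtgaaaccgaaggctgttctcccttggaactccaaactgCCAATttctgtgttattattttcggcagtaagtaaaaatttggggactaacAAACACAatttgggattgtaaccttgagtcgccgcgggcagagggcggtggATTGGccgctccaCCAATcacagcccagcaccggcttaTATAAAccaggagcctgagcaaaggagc
All 4 carried an H1 box and, nearer the start, a CCAAT, at similar places. AAACACA, known as the H1 box of linker histone promoters, began 112 to 122 bases upstream of the start, and a CCAAT began 51 to 54 bases upstream; H1f5 held 2 further CCAAT, 1 of them on the other strand. The word TATAAA, the letters of the TATA box, began 26 to 28 bases upstream in 3 of them; H1f2 had no TATAAA.

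In all 4 genes the H1 box was part of AACAAACACA, which at 10 bases was the longest word that the 4 printed sequences share; it was searched for only after the sequences were read. Of the 32851 promoter windows of 300 bases in the table (250 before to 50 after a start), 83 (0.253%) held AACAAACACA on either strand and 2360 (7.18%) held AAACACA. The word CCAAT was in 37.4% of windows and TATAAA in 13.6%. Of the 83 windows with AACAAACACA, 4 contained an siID4 summit and 3 an siNT summit, and all of these were linker histone windows. The word was taken from these windows and their genes were chosen for their summits, so these counts were fixed in advance. No other window with the word held a summit of either list. At the wider link of 5000 bp, 7 of the 78 genes with the word had an siID4 summit, and these include genes other than H1f2 to H1f5. The share over all protein-coding genes was 2.51%, and as H1f2 to H1f5 were chosen for their summits, nothing is read from this count. The siNT summit of H1f4 lay 38 bp outside its window. Over all 32851 windows, 10 contained an siID4 summit and 9 an siNT summit, so windows without one are the rule whatever words they hold.

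The siID4 summits of H1f3 and H1f4 lay 7 and 6 bp from the H1 box, those of H1f2 and H1f5 25 and 34 bp from it. In siNT the distances were 27 bp for H1f2, 53 bp for H1f3, 12 bp for H1f5 and 173 bp for H1f4. The H1f2 summits lay between the H1 box and the CCAAT, 25 bp (siNT) and 27 bp (siID4) from the latter. Of the 8 linker histone summits, 5 thus lay between the H1 box and the CCAAT nearest the start; the siNT summit of H1f4 and both summits of H1f5 lay upstream of the H1 box.

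E-boxes are the known target of HEB. CANNTG was in 72.3% of all promoter windows, in 65.2% of the 46 windows of the other cluster histone genes, and in 2 of the 4 linker histone windows, a count near these shares. H1f2, whose summits were the highest of the linker histones, and H1f3 had no CANNTG in their windows. H1f4 had 1, a CATCTG that ended 97 bases upstream of the start and lay 1 bp from the siID4 summit and 186 bp from the siNT summit. H1f5 had 1, a CAGTTG 87 bp from the siID4 and 109 bp from the siNT summit. CAGCTG and CACCTG were in none of the 4 windows, and in 16.3% and 20.2% of all windows, so that none among 4 windows is near the background. A word that is missing here is missing from these windows only, and says nothing of how HEB came to be there.

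The H3f3b promoter is shown for the repeated CCAAT beneath its summits, with the same words in capitals.
H3f3b, chr11:116024505-116024754, minus strand: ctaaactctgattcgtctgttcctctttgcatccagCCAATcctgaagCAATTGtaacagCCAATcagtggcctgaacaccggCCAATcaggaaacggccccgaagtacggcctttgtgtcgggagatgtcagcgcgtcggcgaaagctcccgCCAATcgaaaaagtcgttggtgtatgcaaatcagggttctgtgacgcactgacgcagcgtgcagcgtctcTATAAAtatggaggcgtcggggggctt
It held 4 CCAAT words, which began 214, 190, 167 and 97 bases upstream of the start, a TATAAA that began 27 bases upstream, and no AAACACA. At least 4 CCAAT on either strand, a cut set at the count of H3f3b itself, were found in 349 (1.06%) of all windows. H3f3b was the only one of these with a summit inside in each list. Since H3f3b was chosen for its summit and set the cut, its own place in this count was fixed in advance. The siNT summit lay between the first 2 CCAAT, 9 and 11 bp from them, and the siID4 summit 14 bp from the first. The single E-box of the window, CAATTG, spans the siNT summit and is 26 bp from the siID4 summit. CAGCTG and CACCTG were absent from the window.

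**Figure D3:**
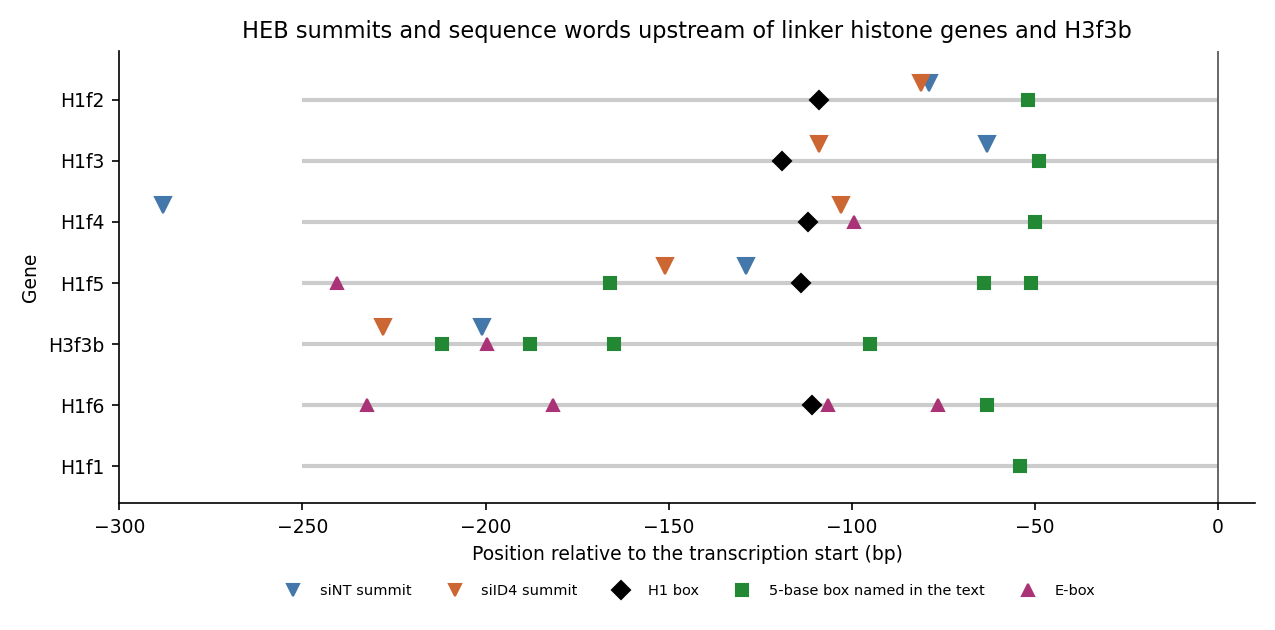
Positions relative to the transcription start (horizontal axis, bp) of the siNT and siID4 summits (downward triangles) and of the H1 box, the 5-base CCAAT box and E-boxes in the 250 bases upstream of the 5 genes and of H1f6 and H1f1, which had no summit. In H1f2, H1f3, H1f4 and H1f5 the H1 box begins 112 to 122 bases and a CCAAT 51 to 54 bases upstream; the siNT summit of H1f4, 288 bp upstream, lies outside the drawn window.

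Summits inside promoter windows were rare in these data. Of all 32851 windows, 9 held an siNT summit and 10 an siID4 summit, and 4 and 5 of these were windows of the histone genes under study. Those genes were chosen for summits beside the gene, so nothing is read from their part of these counts. The other siNT windows were those of Gm8883, Cd244a, Pcolce, S1pr2 and Lrpprc, and the other siID4 windows those of Gm8883, Pcolce, Adcy7, Gm12589 and Lrpprc, named after their values were seen. In each list, 4 of these 5 other windows held CANNTG, 1 held CCAAT and none held TATAAA or AAACACA. Gm8883, Pcolce and Lrpprc are in both lists, so the sets overlap. Over all windows the shares were 72.3% for CANNTG, 37.4% for CCAAT, 13.6% for TATAAA and 7.18% for AAACACA. With 5 windows, these counts are near those shares and are not read as a contrast with the histone windows. The median GC content was 59.3% in the siNT and 58.3% in the siID4 set of other windows, 50.3% in the 5 histone windows and 52.7% over the table.

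The other histone genes of the chromosome 13 cluster were examined for comparison. From H2bc13 (start 21715711) to H1f1 (end 23764412) lie 54 histone genes, of which 50, including 2 pseudogenes, are not among the 5 genes described. Each list had 4 summits in the whole interval, and the nearest annotated gene of each was H1f2, H1f3, H1f4 or H1f5. The next summit on the far side was 21.1 Mb beyond H1f2 in both lists; on the near side it was 8.81 Mb before H1f5 in siID4, and siNT had none. The 47 protein-coding genes of the interval that are not histone genes were all further than 5000 bp from any summit; with 0.991% (siNT) and 2.51% (siID4) of all protein-coding genes that close to one, this is near the background.

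Of the 50 other histone genes, 3 had a summit within 5000 bp in siNT and the same 3 in siID4, and in each case it was the summit of a linker histone gene nearby. H2bc6, an H2B gene, was 1722 bp from the siNT and 1537 bp from the siID4 summit of H1f4. H3c11, an H3 gene, was 2161 and 2139 bp from the summits of H1f5. H4c6, an H4 gene, was 3301 and 3255 bp from those of H1f3 and was the last gene inside the limit. The first beyond it was the H2A gene H2ac22, 6020 and 5998 bp from the H1f5 summits. With each summit counted for its nearest gene only, 0 of the 50 had a summit in either list. These others comprised 14 H2A, 14 H2B, 9 H3 and 11 H4 genes and the H1 genes H1f1 and H1f6. The shares of 0.991% and 2.51% over all protein-coding genes count any gene within 5000 bp, nearest or not. They therefore stand beside the 3 of 50, which is above both, and not beside the 0. Those 3 were close to summits for which a neighbouring gene was chosen, so nothing is read from that count. The contrast with H1f2 to H1f5 is likewise set by the choice of those genes for their summits.

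The H1 genes of the cluster without a summit were H1f1, which encodes the somatic linker histone H1.1, and H1f6, which encodes the testis-specific linker histone H1t. H1f1 was 24940 bp (siNT) and 24942 bp (siID4) from the nearest summit and H1f6 42183 and 42181 bp, and in each case that summit was the one of H1f2. Their promoters are shown for contrast with those above, in the same format.
H1f6, chr13:23695561-23695810, plus strand: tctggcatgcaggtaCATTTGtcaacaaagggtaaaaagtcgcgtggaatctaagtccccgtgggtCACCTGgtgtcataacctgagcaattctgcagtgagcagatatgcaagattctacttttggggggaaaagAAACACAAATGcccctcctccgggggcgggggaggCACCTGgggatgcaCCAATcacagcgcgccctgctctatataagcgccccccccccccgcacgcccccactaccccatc
H1f1, chr13:23763418-23763667, plus strand: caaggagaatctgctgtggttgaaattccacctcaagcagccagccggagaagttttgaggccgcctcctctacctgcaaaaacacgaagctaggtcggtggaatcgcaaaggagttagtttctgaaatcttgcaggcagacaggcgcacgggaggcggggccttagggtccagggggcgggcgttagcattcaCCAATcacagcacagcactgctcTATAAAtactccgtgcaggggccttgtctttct
H1f6 held AAACACA, beginning 114 bases upstream, but not the longer AACAAACACA, and H1f1 held neither. Both held CCAAT, which began 65 and 56 bases upstream. H1f6 held 5 CANNTG in its window of 300 bases, 2 of them CACCTG and 1 overlapping its H1 box, while H1f1 held none. Across these 6 linker histone promoters, AACAAACACA was in the 4 with summits, but it was taken from those 4, so its presence there was fixed in advance. It was in neither H1f6 nor H1f1, a contrast drawn after the sequences were read and over 6 genes only.

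CCAAT was common in the cluster. Of 46 windows, which belong to 45 of the 50 other genes, 38 (82.6%) held it, among them all 12 H2A and all 14 H2B windows, all 7 H3 windows and 3 of 11 H4 windows. At least 4 CCAAT were in 10 of the 46. AAACACA was in 3 of them (6.52%), those of H1f6, 1 H2A gene and 1 H2B gene, and AACAAACACA in 0.

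**Figure D4:**
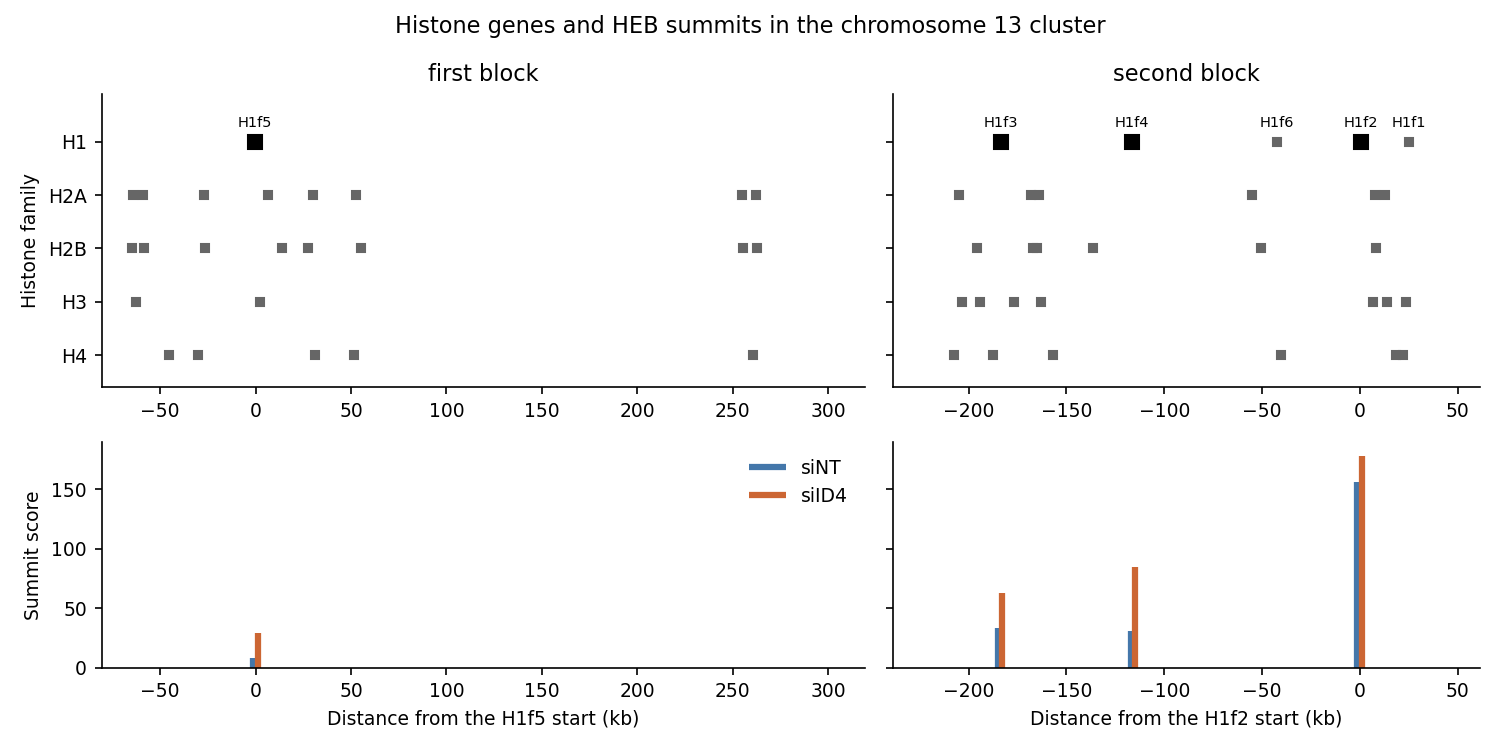
Histone genes of the chromosome 13 cluster by family (upper panels; large black squares are H1f2 to H1f5) and score of each HEB summit (lower panels; siNT and siID4 bars are set 1.2 kb left and right of their place so that both can be seen), against distance in kb from the start of H1f5 (left) or H1f2 (right). Summits stand at 4 of the 6 H1 genes, with siID4 scores of 29.3, 62.8, 84.8 and 178, and nowhere else in the blocks drawn.

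Other genes of histone supply had no summit. Of the linker histone genes outside the cluster, H1f0, H1f7, H1f8 and H1f10, none had a summit closer than 5000 bp; H1f0, the replication-independent H1 of differentiated cells, was 195 kb from the nearest siNT and 686 kb from the nearest siID4 summit. H3f3a, which encodes the same H3.3 protein as H3f3b, was 1.56 Mb from the nearest siNT and 0.961 Mb from the nearest siID4 summit. Of 7 matched replacement and variant histone genes, 15 histone chaperone genes, 12 genes of histone gene transcription and mRNA processing and 16 histone genes of clusters outside the interval, 0 had a summit that close. The nearest of these were Lsm10, a subunit of the U7 particle that processes histone mRNA, 51.9 kb from a summit in both lists, Slbp, the histone stem-loop binding protein gene, at 55.02 kb in siNT, and H2az2, an H2A.Z gene, at 65.4 kb in siID4. Over all protein-coding genes the shares with such a summit were 0.991% and 2.51%, so lists of this size without one lie near the background.

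The genes most like the 5 in their ranks were taken from the 105 protein-coding, non-histone genes with a pair of summits within 200 bp of each other. Likeness was the sum over both lists of the absolute log2 ratio to the median ranks of the 5 genes, 39 in siNT and 19 in siID4. Cbfa2t3, a corepressor gene of the ETO family, was nearest at ranks 32 and 20, a sum of 0.36, with its siID4 summit 16911 bp from the nearest start in the promoter table. Sema5a, a semaphorin gene, followed at ranks 30 and 25, with its summit 84087 bp from a start. Lrpprc, a mitochondrial RNA-binding protein gene, stood at ranks 47 and 27, with its siID4 summit 124 bp from the start. Pcolce, the procollagen C-proteinase enhancer gene, and its neighbour Fbxo24, an F-box gene, share 1 pair of summits at ranks 35 and 31, which lay 3 bp from the start of Pcolce in siID4. Of the 4 sites, those at Lrpprc and Pcolce were thus at a promoter, as at the histone genes, and those at Cbfa2t3 and Sema5a were not.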

How the data were processed

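The authors deposited 1 list of peak summits per siRNA, each row a 1 bp position, a peak name and a score, which is read from the layout and its minimum, just above 1.30 (−log10 of 0.05), as a −log10 q value. Per the submitters' processing notes the build was mm10 and SAMtools was used, with the aligner, peak caller, filters and the way the 3 libraries per siRNA were combined not given in the sources used here. Samples were grouped by their titles. Python 3.11.15, with numpy 2.4.6 and pandas 2.3.3, measured the distance from each summit to gene bodies of the RefSeq table of GRCm38.p6 and ranked scores within a list; a link was 5000 bp and sharing 200 bp. Starts, strands and sequences came from the RefSeq promoter table; words were searched on both strands, a palindrome once. No test was run, since 1 list per siRNA holds no replicates; the distance and word searches were tested on simulated data. Alternatives changed the link and sharing distances, score limit, ranking and background genes.

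The 5 genes, the gene lists and the words were chosen with earlier results of these data known, and AACAAACACA after the promoters were read. Named genes were the 5 genes, cluster histone genes and listed histone-related genes with a summit within 5000 bp (members without one by count or as the nearest), the other linker histone genes, the 2 protein-coding neighbours on each side of H3f3b and the 5 genes most alike in rank. H3f5 matched no symbol. Exons and introns are not in the gene table, so the summits are placed by start and gene body only.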

Additional observations from a re-analysis of the deposited data

How the results depend on the processing

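All 5 genes kept their summit in each list at link distances of 1000, 2000 and 10000 bp, with nearest genes only, at a score of at least 5 and above the median score. With sharing at 50 or 100 bp, 4 of the 5 were shared (H1f4 was not), and at 500 bp all 5. The 3 other cluster histone genes with a summit became 0 in each list at 1000 bp and with nearest genes only, 1 in each at 2000 bp, and 9 (siNT) and 10 (siID4) at 10000 bp. Over 82 histone genes, the 8 with a summit became 5 in each list at 1000 bp and with nearest genes only, and 14 (siNT) and 15 (siID4) at 10000 bp. On assembled chromosomes only, the median rank of the 5 genes moved from 39 to 26 in siNT and from 19 to 8 in siID4. H1f2 then ranked 5 in both lists, and only the others kept a lower rank number in siID4. At a score of at least 5, the background fell to 0.635% (siNT) and 1.14% (siID4). The other alternatives stayed within 1.5 times of the count or share, or left the median rank as it was.

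No paired analysis was possible because each siRNA has 1 list with no value per library; for the same reason no replicate was left out. Depth, input coverage and mappability were not analysed here, and a summit missing from a list was not called there, which does not show that HEB was absent.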
